A study of Rattus norvegicus with 6 samples.

Results

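The genes described here are 10 members of the antioxidant programme governed by the transcription factor NRF2 and of the glutathione and thioredoxin systems it feeds, namely Slc7a11, Gclc, Gclm, Nqo1, Hmox1, Txnrd1, Srxn1, Gsr, Gpx4 and Gpx2. They were taken by symbol from the 22835 genes of the count table, with no filter on their values, and all 10 were found and tested. The list was chosen with earlier results of these data known, so its shares beside those of all genes are descriptive. RNA-seq had been made from whole lung of female rats on an SD background at 12 weeks of age. The 3 ND1_cKO rats (ND1Sftpc-cre, titled DP in the labels) carried both an Sftpc-Cre driver and the LSL-DdCBE-ND1 allele, in which Cre removes a stop cassette and switches on a mitochondrial base editor aimed at ND1, a gene of respiratory complex I. The 3 controls were age-matched ND1LSL littermates according to the series text, while the labels give their genotype as WT. The Sftpc promoter is active in alveolar type 2 cells, so the editor was switched on in a fraction of the cells from which the RNA came. Cre and the active editor were present in ND1_cKO rats alone, and in this design neither can be told apart from the edit.

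NRF2, encoded by Nfe2l2, is held in the cytoplasm and degraded through KEAP1 until oxidants or electrophiles modify KEAP1. It then enters the nucleus, pairs with a small MAF protein and binds antioxidant response elements, from which BACH1 can displace it. Its targets import cystine, build and recycle glutathione, reduce thioredoxin and break down quinones and haem, and in the lung they answer inhaled and inflammatory oxidants. Glutathione also serves GPX4, which reduces lipid peroxides in membranes and so holds back ferroptosis, an iron-dependent form of cell death.

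Library totals ran from 28669995 to 38303274 counts. Sftpc, Ager, Scgb1a1 and Pecam1, markers of type 2, type 1, airway secretory and endothelial cells of the lung, were all detected in every library, the lowest value being 395 CPM. Sftpc (log2 -0.78 ± 0.24), Ager (-0.60 ± 0.21) and Pecam1 (-0.32 ± 0.12) were below every control in each ND1_cKO library without passing the edgeR test (adjusted p from 0.133 to 0.193), and Scgb1a1 overlapped. Over all genes 14.1% lay below every control in each ND1_cKO library. DESeq2 called Sftpc and Ager lower (adjusted p = 0.0116 and 0.0388) and did not call Pecam1 (0.101). Levels are normalised counts (CPM, scaled to library size with TMM factors) and are not adjusted for gene length, so they are compared between libraries and not between genes. In these libraries 7 of 11 transitional epithelial markers rose and 5 of 12 endothelial markers fell, with summed levels of 925 to 1005 against 1659 to 1897 CPM and of 5400 to 5925 against 3534 to 3737 CPM in control and ND1_cKO. Over all genes 1.14% were called higher and 1.28% lower, and 51.9% had a positive log2 fold change. Fibroblast markers summed to 2800.0 to 3520.4 CPM in controls and 4503 to 12865 CPM in ND1_cKO, with 0 of 10 past the test and 8 of 10 positive log2 fold changes. Type 1 cell markers summed to 7323 to 9268 CPM in controls and 4142 to 7023 CPM in ND1_cKO, with 1 of 11 lower past the test and 1 of 11 positive. Type 2 cell markers, Sftpc among them, overlapped, with sums of 30013 to 34511.5 CPM in controls and 23327.9 to 36204.3 CPM in ND1_cKO. Of the 13 type 2 markers, 2 were higher past the test, 0 were lower and 5 were positive, with a median log2 of -0.13. Ciliated cell markers summed to 579 to 647 and 441 to 456 CPM, with 1 of 9 lower past the test and 6 of 9 positive. The part of these shifts in the results below was not tested, and in whole lung fewer cells of a type and less RNA per cell cannot be told apart.

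None of the 10 genes passed the edgeR test at an adjusted p below 0.05 over all 16548 genes tested (0 higher, 0 lower, against a background of 1.14% called higher and 1.28% called lower). The log2 fold change, ND1_cKO over control, was positive for 9 of the 10, against 51.9% of all genes, and the median over the 10 was 0.31 against 0.013 over all genes. An unadjusted p below 0.05 was reached by 4, all higher in ND1_cKO (Slc7a11, Srxn1, Nqo1 and Txnrd1), where 11.1% of all genes did so in that direction and 10.2% in the other. Every ND1_cKO library lay above every control library for Slc7a11, Srxn1 and Txnrd1, which is 3 of 10, and the reverse held for 0, with 14.1% of all genes in either direction. DESeq2, the tool named by the series text, called 2 of the 10, Slc7a11 and Srxn1, both higher, where it called 5.73% of all genes higher and 5.29% lower. The largest difference belonged to the cystine transporter gene Slc7a11, and the smallest were those of the glutathione synthesis genes Gclc and Gclm and of Gpx4 and Gsr.

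**Figure D1:**
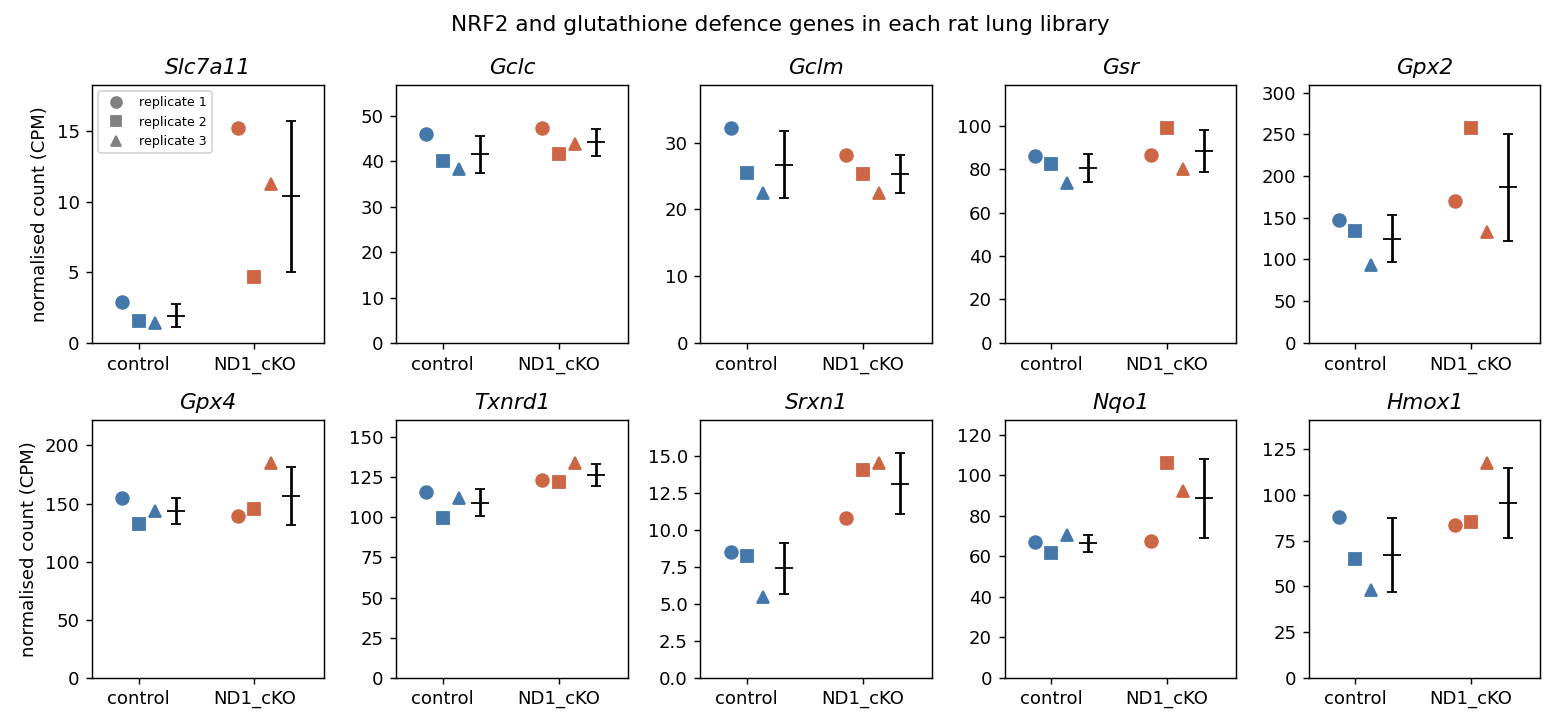
Normalised count (CPM, linear axis from 0) of each of the 10 genes in every library, controls in blue and ND1_cKO in orange, with the symbol giving the replicate and the black bar the mean ± SD of 3 rats. The genotypes are separate for Slc7a11, Txnrd1 and Srxn1 and overlap for the other 7 genes.

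**Figure D2:**
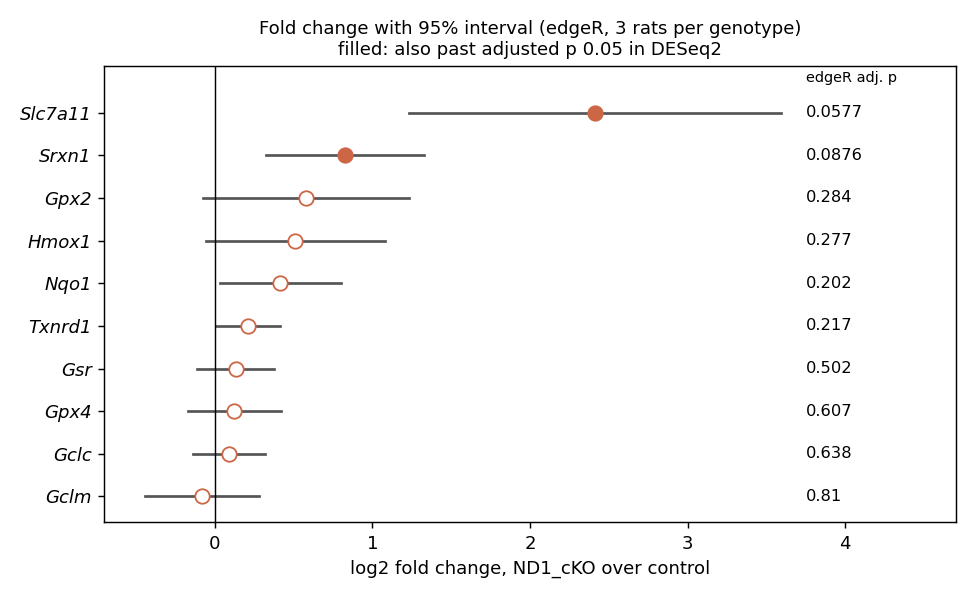
Log2 fold change of each gene, ND1_cKO over control (horizontal axis), with its 95% interval from the edgeR fit and the edgeR adjusted p at the right. Filled circles mark Slc7a11 and Srxn1, which passed in DESeq2 and not in edgeR. The intervals of Slc7a11, Srxn1, Nqo1 and Txnrd1 lie above 0.

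The promoter windows of the members are shown because NRF2 reaches its targets through a short core sequence. RefSeq windows on GRCr8 (250 bases before to 50 after the annotated start) were matched by symbol for 8 of the 10 genes, with 11 windows in all. The genes without a window here are Hmox1 and Gsr. Both strands were searched for the element core in the forms TGACNNNGC and TGAGNNNGC. At least 1 of the forms was present in a window of 5 of the 8 genes, Gclm, Txnrd1, Srxn1, Gpx2 and Gpx4, against 32.6% of the tested genes with a window. Taken by window, 5 of 11 held a form, against 30.8% of the windows of tested genes (14% for the C form and 19.4% for the G form). The windows of 4 of these genes are printed 5′ to 3′ along the gene with the core in capitals, beside that of Slc7a11, the gene with the largest difference, which held neither form in this window.
Slc7a11 promoter, chr2:136668215-136668514, minus strand: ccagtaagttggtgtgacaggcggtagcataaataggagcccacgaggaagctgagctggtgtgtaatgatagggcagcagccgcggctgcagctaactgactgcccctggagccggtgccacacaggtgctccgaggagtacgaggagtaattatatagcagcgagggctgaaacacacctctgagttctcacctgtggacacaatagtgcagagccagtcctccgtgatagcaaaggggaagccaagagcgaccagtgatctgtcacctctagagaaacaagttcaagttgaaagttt
Srxn1 promoter, chr3:161064562-161064861, plus strand: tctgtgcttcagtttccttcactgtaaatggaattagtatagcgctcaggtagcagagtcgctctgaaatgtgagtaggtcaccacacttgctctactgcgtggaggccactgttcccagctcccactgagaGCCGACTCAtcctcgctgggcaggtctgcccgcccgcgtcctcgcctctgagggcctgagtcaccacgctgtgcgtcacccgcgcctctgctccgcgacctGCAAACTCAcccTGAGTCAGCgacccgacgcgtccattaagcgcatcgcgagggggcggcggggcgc
Txnrd1 promoter, chr7:22755855-22756154, minus strand: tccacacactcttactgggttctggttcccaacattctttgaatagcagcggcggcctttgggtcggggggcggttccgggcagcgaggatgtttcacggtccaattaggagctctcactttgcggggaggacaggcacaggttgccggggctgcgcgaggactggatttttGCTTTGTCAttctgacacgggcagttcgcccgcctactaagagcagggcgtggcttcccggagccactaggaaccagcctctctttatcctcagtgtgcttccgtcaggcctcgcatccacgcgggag
Gclm promoter, chr2:213031885-213032184, plus strand: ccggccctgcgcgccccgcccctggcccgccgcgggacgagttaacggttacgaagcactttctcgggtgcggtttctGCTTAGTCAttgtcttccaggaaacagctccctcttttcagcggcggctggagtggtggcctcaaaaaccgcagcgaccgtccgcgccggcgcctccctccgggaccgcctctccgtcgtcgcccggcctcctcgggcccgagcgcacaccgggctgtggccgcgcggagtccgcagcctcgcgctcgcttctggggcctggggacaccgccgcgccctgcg
Gpx2 promoter, chr6:101229984-101230283, minus strand: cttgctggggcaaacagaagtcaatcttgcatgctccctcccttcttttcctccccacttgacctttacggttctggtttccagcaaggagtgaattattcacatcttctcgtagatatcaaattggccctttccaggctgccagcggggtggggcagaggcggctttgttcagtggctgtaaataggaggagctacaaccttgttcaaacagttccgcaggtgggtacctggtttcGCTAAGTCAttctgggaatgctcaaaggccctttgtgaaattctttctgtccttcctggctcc
Counting from 1 at the 5′ end of the window, the Srxn1 window held the core at base 133, at base 234 and at base 246. The last of these reads TGAGTCAGC and overlaps an AP-1 motif (TGACTCA, on the other strand), which also occurred at base 189 and was present in 3.78% of windows of tested genes. Read on the opposite strand, the Txnrd1 core is TGACAAAGC, the Gclm core TGACTAAGC and the Gpx2 core TGACTTAGC. The motif TGATGNAA, bound by ATF4 with a C/EBP partner, was in 0 of the 11 windows and in 2.42% of windows of tested genes. These are matches of letters and do not show binding.

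Slc7a11 encodes the light chain of the cystine/glutamate exchanger, the entry point of cystine for glutathione synthesis, and is a target of the stress factor ATF4 as well as of NRF2. It stood at 2.91, 1.54 and 1.38 CPM in control replicates 1, 2 and 3 and at 15.2, 4.67 and 11.3 CPM in ND1_cKO replicates 1, 2 and 3. Every ND1_cKO library was above every control, and the ND1_cKO libraries spread widely, with replicate 2 the nearest to the controls. The means were 1.94 ± 0.842 and 10.4 ± 5.34 CPM (SD, n = 3 rats), a 5.32-fold difference with a 95% interval of 2.35 to 12.1 (log2 2.41 ± 0.50 SE). Its edgeR adjusted p was 0.0577, so it did not pass, whereas DESeq2 gave the same log2 value of 2.41 with an adjusted p of 7.44e-06. Without ND1_cKO replicate 2 edgeR also called it (log2 2.75, adjusted p = 0.0284, with 1.12% of all genes called higher), and over the 6 fits that each left out a library its log2 fold change ran from 2.02 to 2.83 with adjusted p from 0.0284 to 0.201. The counts behind these levels were 40 to 111 in controls and 172 to 559 in ND1_cKO. Slc3a2, which encodes the heavy chain shared by this and other amino acid exchangers and was chosen for that role, did not follow it (log2 -0.13 ± 0.10, adjusted p = 0.486). The ratio of Slc7a11 to Slc3a2 counts, which does not depend on the scaling of the libraries, was 0.00606 to 0.0155 in controls and 0.0228 to 0.0799 in ND1_cKO, without overlap.

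Gclc and Gclm encode the catalytic and the modifier subunit of glutamate-cysteine ligase, the rate-limiting enzyme of glutathione synthesis. Gclc measured 46.1, 40.1 and 38.4 CPM in the controls and 47.4, 41.5 and 43.7 CPM in ND1_cKO. The genotypes overlapped (means 41.5 ± 4.03 and 44.2 ± 2.94 CPM), with a log2 fold change of 0.09 ± 0.10 (95% interval -0.14 to 0.32, adjusted p = 0.638). Gclm measured 32.2, 25.5 and 22.4 CPM in the controls and 28.1, 25.3 and 22.5 CPM in ND1_cKO (means 26.7 ± 5.02 and 25.3 ± 2.81), and its log2 fold change was -0.08 ± 0.15 (95% interval -0.44 to 0.28, adjusted p = 0.81). The sign of Gclm turned positive without control replicate 1 (0.08) and with library weights in limma-voom (0.03). The intervals leave room for a Gclc level between 0.908 and 1.25 times, and a Gclm level between 0.737 and 1.22 times, that of controls. Within each library the ratio of Gclm to Gclc counts was 0.583 to 0.699 in controls and 0.514 to 0.608 in ND1_cKO, again overlapping. Gsr, encoding the reductase that regenerates glutathione with NADPH, was at 86.0, 82.5 and 73.6 CPM in controls and 86.6, 99.0 and 80.05 CPM in ND1_cKO. Its groups overlapped as well (means 80.7 ± 6.4 and 88.5 ± 9.64 CPM, log2 0.13 ± 0.10, 95% interval -0.11 to 0.38, adjusted p = 0.502). The 95% interval of Slc7a11 thus lay wholly above those of Gclc, Gclm and Gsr, and the difference between these fold changes was not itself tested.

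Around these enzymes, 1 of 19 tested genes of glutathione synthesis, turnover and export rose and 0 fell (median log2 0.12). Over all genes 1.14% were called higher and 1.28% lower. At an unadjusted p below 0.05, 4 of the 19 were higher and 0 lower, against 11.1% and 10.2% of all genes. DESeq2 called 3 higher and 0 lower, against 5.73% and 5.29%. The genotypes were separate for 5 higher and 1 lower, with 14.1% of all genes in each direction. The riser was Ggt1, the cell-surface gamma-glutamyltransferase that starts the breakdown of extracellular glutathione and is made by alveolar type 2 cells among others. It went from 10.7 ± 1.45 to 24.5 ± 6.54 CPM, a 2.28-fold rise (log2 1.19 ± 0.21, adjusted p = 0.0405). All 3 ND1_cKO libraries, at 23.0, 18.8 and 31.6 CPM, were above the controls at 11.6, 11.5 and 9.05 CPM. The call of Ggt1 was lost in limma-voom (adjusted p = 0.0561) and in each fit without a control or without ND1_cKO replicate 1 (adjusted p from 0.0789 to 0.158). Gss, glutathione synthetase, stood at 12.2 ± 0.684 and 18.4 ± 2.09 CPM (log2 0.59 ± 0.12, adjusted p = 0.0543), and Oplah, the 5-oxoprolinase that returns glutamate to the cycle, at 31.8 ± 1.99 and 42.2 ± 4.20 CPM (log2 0.41 ± 0.10, adjusted p = 0.0778). Both had separate genotypes and did not pass, and DESeq2 called both (adjusted p = 0.00181 and 0.0224).

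Gpx2 and Gpx4 are selenium-dependent glutathione peroxidases, the former a soluble enzyme of epithelia and the latter the enzyme that acts on membrane lipid peroxides. Gpx2 was at 147, 134 and 93.0 CPM in controls and at 169.8, 258 and 133 CPM in ND1_cKO. ND1_cKO replicate 2 was far above the rest, while replicate 3 lay among the controls. The means were 125 ± 28.4 and 187 ± 64.1 CPM. Its log2 fold change was 0.58 ± 0.27 (95% interval -0.08 to 1.24, adjusted p = 0.284), and without ND1_cKO replicate 2 it was 0.27. Airway secretory markers, from a compartment that also expresses Gpx2, summed to 5978 to 7241 CPM in controls and 6914 to 8688 CPM in ND1_cKO, with no marker at 0, and ND1_cKO replicate 3 was their highest library. Of the 8 tested, 0 passed the threshold and 6 had a positive log2 fold change, against 51.9% of all genes. The median of these markers was 0.49, and their part in the Gpx2 level was not tested. Gpx4 was at 154, 133 and 144 CPM in controls and at 139, 145 and 185 CPM in ND1_cKO. The groups overlapped (means 144 ± 10.9 and 157 ± 24.9 CPM), the log2 fold change was 0.12 ± 0.12 (95% interval -0.17 to 0.42, adjusted p = 0.607), and without ND1_cKO replicate 3 it was -0.02. Of 5 other tested peroxidase genes 0 passed in either direction (median log2 0.33), and the lowest p-values belonged to Gpx1 (0.27 ± 0.13, adjusted p = 0.288) and the endoplasmic reticulum enzyme gene Gpx7 (0.38 ± 0.26, adjusted p = 0.435). At an unadjusted p below 0.05 the count was 0 of 5 as well, and DESeq2 called 0.

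Glutathione transferases, which attach glutathione to electrophiles, had 1 riser and 0 fallers among 22 tested, with a median log2 of -0.02. Over all genes 1.14% were called higher and 1.28% lower. At an unadjusted p below 0.05, 2 of the 22 were higher and 1 lower, against 11.1% and 10.2% of all genes. DESeq2 called 2 higher and 0 lower, against 5.73% and 5.29%. Gstm5 rose from 10.4 ± 1.2 to 34.8 ± 7.51 CPM, a 3.35-fold difference (log2 1.74 ± 0.18, adjusted p = 0.0162). Its libraries read 9.35, 11.7 and 10.2 CPM in controls against 37.2, 40.9 and 26.4 CPM in ND1_cKO. It no longer passed without control replicate 2 (adjusted p = 0.0964) or 3 (0.0791) or ND1_cKO replicate 1 (0.0544). The mu-class genes are close relatives that may share reads, so the value of Gstm5 and that of Gstm7 (-0.69 ± 0.27, adjusted p = 0.201) are uncertain. Hpgds, the haematopoietic prostaglandin D synthase of this family, was at 6.10 ± 1.02 and 13.7 ± 5.32 CPM (log2 1.16 ± 0.28, adjusted p = 0.0775), with DESeq2 at 0.00187.

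Txnrd1 encodes the cytosolic thioredoxin reductase, a selenoprotein that hands electrons from NADPH to thioredoxin. It measured 116, 99.7 and 112 CPM in controls and 123, 122 and 134 CPM in ND1_cKO. The groups did not overlap but lay close, and the log2 fold change of 0.21 ± 0.09 (95% interval 0.01 to 0.41) did not pass (means 109 ± 8.45 and 126 ± 6.73 CPM, adjusted p = 0.217; DESeq2 0.239). Srxn1 encodes sulfiredoxin, which restores peroxiredoxins that have been over-oxidised by peroxide. It measured 8.52, 8.26 and 5.44 CPM in controls and 10.8, 14.1 and 14.6 CPM in ND1_cKO, again without overlap. Its means were 7.40 ± 1.71 and 13.1 ± 2.05 CPM, a 1.77-fold difference with a 95% interval of 1.25 to 2.51 (log2 0.83 ± 0.21). The edgeR adjusted p was 0.0876 and that of DESeq2 0.00761. Over the fits that left out a library the log2 fold change of Srxn1 ran from 0.65 to 0.94, the lowest without control replicate 3, and the adjusted p from 0.11 to 0.209. The ratio of Srxn1 to Prdx1 counts was 0.028 to 0.0553 in controls and 0.0484 to 0.0624 in ND1_cKO, with overlap. Prdx1, a peroxiredoxin gene chosen for that role, was itself above every control in each ND1_cKO library without passing (log2 0.41 ± 0.13, edgeR adjusted p = 0.133).

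Of 20 other tested genes of the thioredoxin, peroxiredoxin and glutaredoxin systems, 1 rose and 0 fell. The log2 fold change was positive for 17 of them (median 0.21), against 51.9% of all genes. Over all genes 1.14% were called higher and 1.28% lower. At an unadjusted p below 0.05, 4 of the 20 were higher and 0 lower, against 11.1% and 10.2% of all genes. DESeq2 called 3 higher and 0 lower, against 5.73% and 5.29%. The riser was Txnrd3, a thioredoxin reductase with a glutaredoxin domain, which went from 10.9 ± 1.73 to 18.8 ± 0.434 CPM (log2 0.78 ± 0.14, adjusted p = 0.0397). It kept its call without control replicate 1 and without ND1_cKO replicate 3 but in no other fit with a library left out (adjusted p from 0.0679 to 0.147). Prdx5, a peroxiredoxin found in mitochondria and other organelles, was at 168 ± 29.6 and 259.6 ± 9.44 CPM without overlap (log2 0.63 ± 0.13, adjusted p = 0.0549). Msrb1, a selenoprotein that repairs oxidised methionine, was at 35.3 ± 2.58 and 47.8 ± 4.38 CPM (log2 0.44 ± 0.10, adjusted p = 0.0664). DESeq2 called Prdx5 and Msrb1, which edgeR did not, at adjusted p of 0.00101 and 0.0117.

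Nqo1 encodes a quinone reductase that is a standard readout of NRF2 activity. It measured 66.8, 61.8 and 70.5 CPM in controls and 67.4, 106 and 92.2 CPM in ND1_cKO. ND1_cKO replicate 1 lay within the control range, while replicates 2 and 3 were above it (means 66.4 ± 4.34 and 88.6 ± 19.7 CPM). The log2 fold change was 0.42 ± 0.16 (95% interval 0.04 to 0.80, adjusted p = 0.202), and leaving out a library moved it between 0.25 and 0.57. Hmox1 encodes haem oxygenase 1, which opens the haem ring and is strongly expressed by macrophages that take up red cells. It measured 88.0, 65.0 and 48.0 CPM in controls and 83.6, 85.4 and 118 CPM in ND1_cKO. Control replicate 1 was above ND1_cKO replicates 1 and 2, so the groups overlapped (means 67.01 ± 20.1 and 95.5 ± 19.1 CPM, log2 0.51 ± 0.24, 95% interval -0.06 to 1.08, adjusted p = 0.277). The value was 0.76 without control replicate 1 and 0.32 without control replicate 3. Markers of monocyte-derived macrophages had 1 of 16 past the threshold, higher, and summed to 18403 to 21771 CPM in controls and 17048 to 25686 CPM in ND1_cKO, with none at 0. Of these 16 markers 14 had a positive log2 fold change, against 51.9% of all genes, and the median of the 16 was 0.85. Markers of resident alveolar macrophages had 0 higher and 1 lower of 8 tested, and summed to 626 to 930.3 against 814 to 1016 CPM (4 positive, median log2 0.08). Marco and Ear1, of that list, were at 0 in at least 1 library. The part of these cells in the Hmox1 level was not tested.

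Of 24 other tested genes listed as NRF2 targets in detoxification, 2 rose and 0 fell, with a median log2 of -0.08. The list includes Cyp1a1, Cyp2b1 and Tsc22d3, and whether NRF2 controls its genes in these lungs was not tested. At an unadjusted p below 0.05 this list had 4 higher and 5 lower, where 11.1% of all genes were higher and 10.2% lower. DESeq2 called 4 higher and 3 lower, where it called 5.73% of all genes higher and 5.29% lower. The 3 that DESeq2 called lower, of which the first pair is named after its values were seen, were the aldo-keto reductase genes Akr7a3 (edgeR log2 -0.68 ± 0.19, adjusted p = 0.0977) and Akr1c14 (-0.81 ± 0.23, adjusted p = 0.118) and the exporter gene Abcc4, with DESeq2 adjusted p of 0.0111, 0.00996 and 0.0145. Abcc5, an exporter of organic anions, went from 56.3 ± 1.61 to 95.5 ± 10.5 CPM (log2 0.76 ± 0.09, adjusted p = 0.019). Trim16, an E3 ligase gene, went from 8.21 ± 1.16 to 15.02 ± 1.61 CPM (log2 0.87 ± 0.15, adjusted p = 0.041). Abcc5 lost its call without control replicate 2 (adjusted p = 0.133) or 3 (0.112) or ND1_cKO replicate 1 (0.0544), and Trim16 without any library except ND1_cKO replicate 2 (0.0567 to 0.163). The related exporter genes Abcc3 (0.56 ± 0.11, adjusted p = 0.0525) and Abcc4 (-0.61 ± 0.16, adjusted p = 0.0935) pointed in opposite directions without passing. Of 26 haem and iron genes 0 passed with edgeR, 8 were higher at an unadjusted p below 0.05, and DESeq2 called 5, all higher (median log2 0.28, with 11.1% of all genes higher at that p and 5.73% called higher by DESeq2). The lowest p-values there belonged to Steap3, a ferrireductase of endosomes, at 4.65 ± 1.54 and 10.02 ± 1.46 CPM (log2 1.11 ± 0.26, adjusted p = 0.0697), and to the transferrin receptor gene Tfrc at 36.6 ± 8.03 and 59.5 ± 6.39 CPM (log2 0.70 ± 0.16, adjusted p = 0.0727).

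Among NRF2 itself and its regulators 0 of 17 rose and 1 fell (median log2 -0.07), against 1.14% and 1.28% of all genes. At an unadjusted p below 0.05, 0 were higher and 2 lower, against 11.1% and 10.2% of all genes. DESeq2 called 0 higher and 1 lower, against 5.73% and 5.29%. Every ND1_cKO library lay below every control for 6 of the 17 and above for 0, with 14.1% of all genes in each direction. Nfe2l2 transcripts measured 161.5, 153 and 149 CPM in controls and 167, 150.2 and 186 CPM in ND1_cKO, and the groups overlapped (log2 0.12 ± 0.10, 95% interval -0.11 to 0.34, adjusted p = 0.515). NRF2 is controlled mainly through its protein stability, which transcript counts do not show. Keap1 measured 67.3, 62.0 and 64.5 CPM in controls and 56.7, 58.5 and 48.0 CPM in ND1_cKO, all below the controls, at a log2 fold change of -0.25 ± 0.10 that did not pass (adjusted p = 0.197). Bach1 overlapped between genotypes (-0.07 ± 0.11, adjusted p = 0.774). The faller was Bach2, a repressor related to BACH1 and best known from B and T lymphocytes, which went from 23.6 ± 3.48 to 13.2 ± 1.54 CPM (log2 -0.84 ± 0.14, adjusted p = 0.0391). With any library left out Bach2 did not pass (adjusted p from 0.0506 to 0.145). Lymphocyte markers summed to 262 to 319 CPM in controls and 234 to 293 CPM in ND1_cKO, with 0 of 8 past the threshold and none at 0. Of the 8, 1 had a positive log2 fold change, against 51.9% of all genes. The median of these markers was -0.76, and their part in the Bach2 level was not tested. The related factor gene Nfe2l1 stood at 312 ± 10.2 and 281 ± 1.44 CPM (log2 -0.15 ± 0.07, adjusted p = 0.288).

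NADPH powers both reductases and NQO1. Of 15 tested genes of its supply, which include enzymes of the pentose phosphate pathway that do not themselves make it, 0 passed with edgeR and 13 had a positive log2 fold change (median 0.23), against 51.9% of all genes. At an unadjusted p below 0.05 it was 5 higher, against 11.1% of all genes, and DESeq2 called 3, all higher, against 5.73%. Idh2, the mitochondrial isocitrate dehydrogenase, was at 143 ± 15.7 and 208 ± 21.99 CPM (log2 0.54 ± 0.12, adjusted p = 0.0576), and Pgd, of the pentose phosphate pathway, at 137 ± 27.7 and 202 ± 6.38 CPM (log2 0.56 ± 0.14, adjusted p = 0.0819). On the lipid side of ferroptosis 1 of 29 genes rose and 1 fell (median log2 0.15), against 1.14% and 1.28% of all genes. At an unadjusted p below 0.05, 6 of the 29 were higher and 3 lower, against 11.1% and 10.2%. DESeq2 called 5 higher and 2 lower, against 5.73% and 5.29%. The genotypes were separate for 8 higher and 4 lower, with 14.1% of all genes in each direction. Gch1, GTP cyclohydrolase, whose product tetrahydrobiopterin can trap lipid radicals, went from 14.7 ± 1.86 to 35.4 ± 6.13 CPM, 2.40-fold (log2 1.27 ± 0.16, adjusted p = 0.019). Mboat2, a lysophospholipid acyltransferase that changes the fatty acids of membranes, went from 18.2 ± 1.37 to 11.5 ± 0.87 CPM (log2 -0.66 ± 0.12, adjusted p = 0.041). Gch1 lost its call without control replicate 2 (adjusted p = 0.133) or 3 (0.108), and Mboat2 with any library left out (0.0554 to 0.147). Sat1, of polyamine breakdown (0.59 ± 0.12, adjusted p = 0.0533), and the lipoxygenase gene Aloxe3 (-1.16 ± 0.25, adjusted p = 0.0592) did not pass. Among 4 genes that remove superoxide or hydrogen peroxide 0 passed. Sod3, the extracellular dismutase, was at -0.41 ± 0.10 (adjusted p = 0.0732), and the mitochondrial Sod2 at 0.48 ± 0.17 (adjusted p = 0.176). There 1 was higher and 1 lower at an unadjusted p below 0.05, and DESeq2 called 1, lower. Of 23 selenoprotein synthesis genes and selenoproteins 0 passed. The lowest p-values were those of the selenium carrier gene Selenop (-0.44 ± 0.13, adjusted p = 0.108) and Selenoh (0.42 ± 0.12, adjusted p = 0.118). There 2 were higher and 2 lower at an unadjusted p below 0.05, and DESeq2 called 1, lower. Over all genes 11.1% were higher and 10.2% lower at that p, and DESeq2 called 5.73% higher and 5.29% lower.

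**Figure D3:**
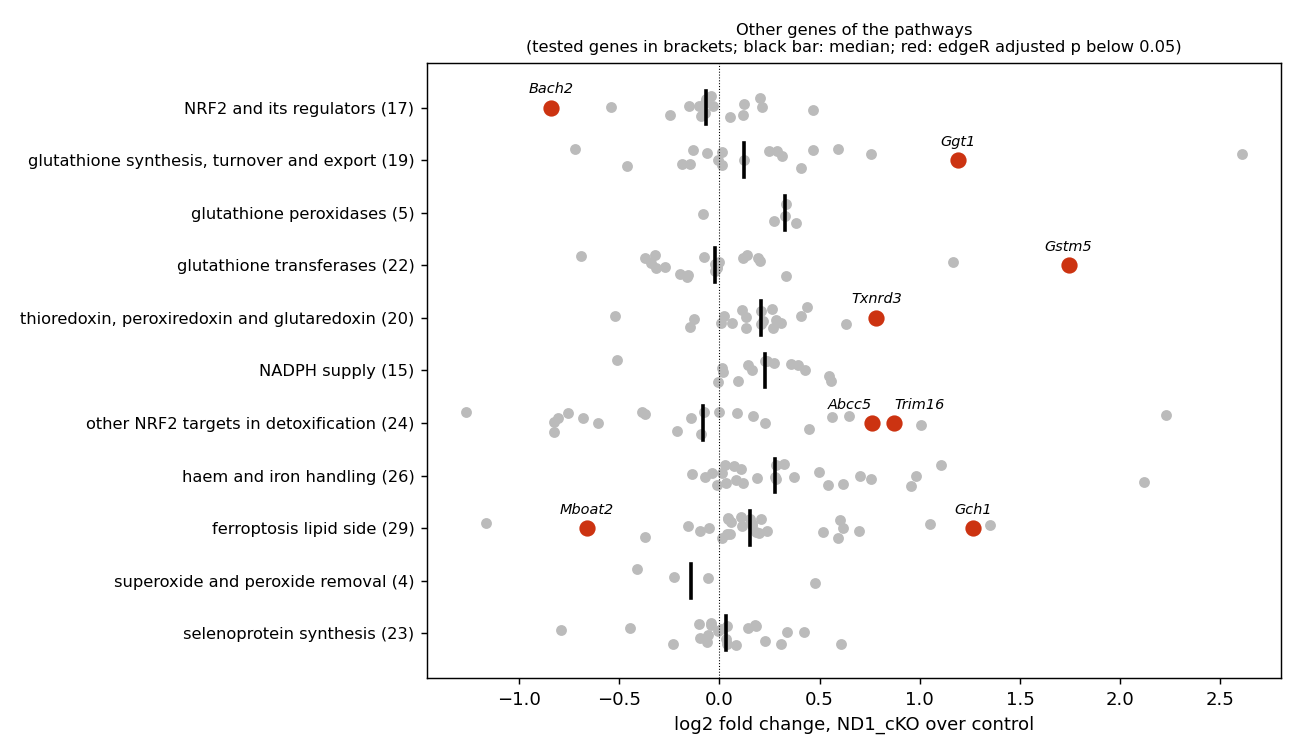
Log2 fold change, ND1_cKO over control (horizontal axis), of 204 other tested genes of the pathways, 1 point per gene and 1 row per list, with the median as a black bar. The 8 named red points passed the edgeR test, 6 to the right of 0 and 2 to the left.

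Over all these lists 6 of 204 tested genes rose (2.94%, against 1.14% of all genes) and 2 fell (0.98%, against 1.28%). At an unadjusted p below 0.05, 36 were higher (17.6%, against 11.1%) and 14 lower (6.86%, against 10.2%), and DESeq2 called 25 higher (12.3%, against 5.73%) and 8 lower (3.92%, against 5.29%). The lists were chosen with earlier results of these data known, so these shares are descriptive. The calls depended on single libraries. Of the 8 genes, 0 still passed without control replicate 2, 0 without control replicate 3 and 1, Gch1, without ND1_cKO replicate 1. Without control replicate 1 Gstm5, Txnrd3, Abcc5 and Gch1 passed, and Bach2 and Mboat2 passed in none of the 6 fits with a library left out. The other 2 fits kept 5 of the 8 each. These were Ggt1, Gstm5, Abcc5, Trim16 and Gch1 without ND1_cKO replicate 2, and Ggt1, Gstm5, Txnrd3, Abcc5 and Gch1 without ND1_cKO replicate 3. The loss extended to the whole table, where edgeR called 188 genes higher and 212 lower with all libraries, 0 and 0 without control replicate 2, 7 and 2 without control replicate 3, 18 and 5 without ND1_cKO replicate 1 and 110 and 74 without control replicate 1. Over the whole table it called 189 and 174 without ND1_cKO replicate 2, and 250 and 245 without ND1_cKO replicate 3.

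The members shared an order of libraries among the controls and not among the ND1_cKO rats. Among the controls, replicate 1 was the highest library for 9 of the 10 and replicate 3 the lowest for 7, where 36.7% of all genes were highest in replicate 1 and 31.4% lowest in replicate 3. Nqo1 was the exception, with its highest control level in replicate 3. Control replicate 3 was also the shallowest library and replicate 1 the deepest, and the part of depth in this order was not tested. Among the ND1_cKO libraries the highest level fell in replicate 1 for 3 genes, replicate 2 for 3 and replicate 3 for 4. Slc7a11, Gclc and Gclm were highest in replicate 1, Gpx2, Gsr and Nqo1 in replicate 2, and Hmox1, Gpx4, Txnrd1 and Srxn1 in replicate 3. ND1_cKO replicate 3, which stood farthest from the controls on the first principal component (65.2, against 25.3 and 13.7 in replicates 1 and 2), had neither the highest Slc7a11 nor the highest Gpx2 level.

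**Figure D4:**
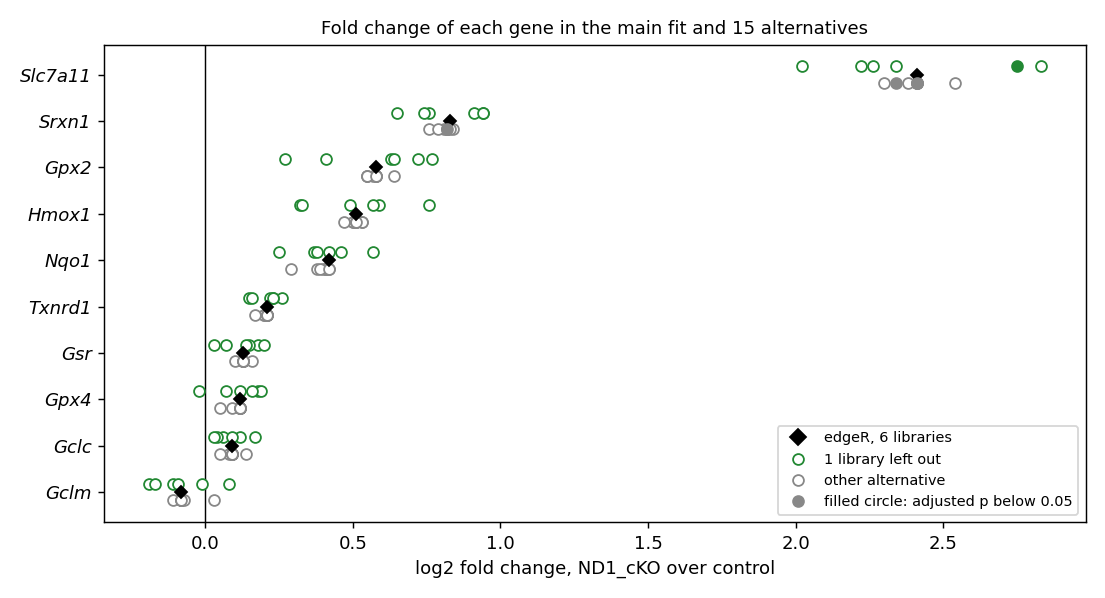
Log2 fold change of each member, ND1_cKO over control (horizontal axis), with all 6 libraries in edgeR (black diamond), with 1 library left out (green) and under other tests, scalings and filters (grey). Circles are filled where the adjusted p is below 0.05. Slc7a11 keeps the largest value throughout, between 2.02 and 2.83, and Gclm and Gpx4 are the genes with values on both sides of 0.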

How the data were processed

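What the authors deposited is a table of raw whole-number counts, 22835 gene symbols by 6 libraries, whose columns were matched to samples through the names given in the sample descriptions (0 columns were left over). The tools listed, without their roles, per the submitters' processing notes are HTSeq, HISAT2, fastp, R 4.3.3 and DESeq2. Build, annotation and strand setting: not given in the sources used here, and where genes overlap or lie antisense their reads may be mixed.

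The counts were tested in edgeR 4.0.16 under R 4.3.3 (quasi-likelihood, robust, two-sided, TMM scaling, filterByExpr), genotype being the only factor, and p-values were adjusted by the Benjamini-Hochberg method over 16548 genes. A standard error is the size of the log2 fold change divided by the root of its F statistic, and intervals are 95%. DESeq2 1.42.0, limma-voom 3.58.1, other scalings and filters, a replicate term and the removal of each library were alternatives. On data simulated for this comparison with 16350 genes, edgeR found 55 of the 100 genes given a 2-fold change and 91 of the 100 given a 4-fold change, and 5.19% of its calls were false. Each simulated gene had the dispersion of the trend at its level, without scatter between genes and without an outlying library. These rates may therefore not hold for the real libraries. The biological coefficient of variation was 0.22. No pair of libraries agreed within sampling noise (chi-square per degree of freedom 23.7 or more). Each library is a separate rat per the series text.

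The members and the 11 pathway lists were chosen with earlier results of these data known. Of 216 listed pathway genes 212 were found and 204 tested. The genes named from each list are those past the threshold and the 2 lowest p-values among the others, with Nfe2l2, Keap1 and Bach1 named in any case. Slc3a2 and Prdx1 were named for their roles, and other exceptions are marked where they occur. The G form of the element core was added after the C form had been searched.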

Additional observations from a re-analysis of the deposited data

How the results depend on the processing

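The count of members past the threshold was 0 in edgeR, 2 in DESeq2 (Slc7a11 and Srxn1) and 1 (Slc7a11) with the replicate number as a block; with a library left out it ran from 0 to 1, and it was 0 in the other alternatives. The count of members lower was 0 in all of them. Pathway genes higher numbered 6 in edgeR, 25 in DESeq2, 14 with library weights, 10 with no filter, 3 with the fold threshold of the series text (absolute log2 fold change above 1) and 0 to 10 with a library left out. Pathway genes lower numbered 2, against 8 in DESeq2, 4 with library weights, 0 with the replicate block, 0 with the fold threshold and 0 to 1 with a library left out. Over all genes 188 were higher and 212 lower, against 977 and 902 in DESeq2, 466 and 484 with library weights and 111 and 52 with the fold threshold. With the replicate block 145 were higher and 117 lower. With a library left out 0 to 250 were higher and 0 to 245 lower. The cause of these shifts was not tested. The fits that left out a library also had fewer libraries, and the part of that in their counts was not tested either. The sign turned for Gclm with library weights (0.03) and without control replicate 1 (0.08), for Gpx4 without ND1_cKO replicate 3 (-0.02) and for Bach1 without ND1_cKO replicate 2 (0.02); with a library left out these genes ran from -0.19 to 0.08, from -0.02 to 0.19 and from -0.17 to 0.02.

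Same-numbered libraries had correlated deviations of 0.165, 0.0235 and 0.135 for numbers 1, 2 and 3, and no label says that a number marks a shared litter or batch, so the numbers were not taken to pair the rats. Every library nevertheless correlated best with its own number, a hint from the data and not from the design. In the block fit Slc7a11 had an adjusted p of 0.043, and of the 8 pathway genes called without it Gstm5, Abcc5 and Gch1 passed and Ggt1, Txnrd3, Trim16, Bach2 and Mboat2 did not. At 3 rats per genotype, changes near 2-fold are recovered in part, so a p that misses the threshold does not show that a gene did not differ.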
